A study of Danio rerio with 6 samples.

Results

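The genes of phototransduction, the cascade by which photoreceptors turn light into a nerve signal, were followed in whole zebrafish larvae mutant for *tafazzin*. The group was set by gene name and holds 10 of the 27335 genes in the deposited table. Of these, 6 belong to cones (*pde6h*, *pde6c*, *gnat2*, *gngt2b*, *arr3a* and *arr3b*) and 3 to rods (*pde6a*, *pde6b* and *gnat1*). The last, *tulp1a*, is kept apart as a gene of both cell types. The genes were selected on their FPKM in these pools, around *pde6h*, whose lower value in the mutants was already known. Differences between genotypes are therefore a description of these genes, and the counts past a threshold are not a test of the group.

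Maternal zygotic (MZ) *tafazzin* mutants, homozygous for the 1-bp frameshift deletion in exon 3 named *taz*E3 and born to homozygous mutant parents, were set against wild-type (*taz*+/+) larvae at 5 days post-fertilization (dpf). Each genotype had 3 pools of 25 whole larvae and 1 RNA-seq library per pool, and no larvae were treated. One passage of the study takes all pools from 1 clutch and another has mutant siblings and wild-type siblings bred apart, so the effect of the cross and that of genotype cannot be told apart. Values are FPKM, which the study defines as fragments relative to exon length and to the number of mapped fragments. Whether libraries were scaled in any other way is unknown. Pools are numbered 0 to 2 as in the deposited columns. By the labels, mutant pool 0 and wild-type pool 0 share only the number, and whether they were handled together is unknown.

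In darkness, photoreceptors hold their cyclic GMP channels open. Light activates an opsin, which turns on the G protein transducin, made of an alpha subunit (*gnat1* in rods, *gnat2* in cones) and a beta-gamma pair that includes *gngt2b* in cones. Transducin then lifts the brake that a small inhibitory subunit (*pde6h* in cones) puts on the phosphodiesterase PDE6, whose catalytic subunits are encoded by *pde6c* in cones and by *pde6a* and *pde6b* in rods, and cyclic GMP falls. Arrestins such as *arr3a* and *arr3b* quench the activated opsin. In zebrafish, *arr3a* is known from red and green cones and *arr3b* from blue and ultraviolet cones, and cones drive most vision in larvae of this age. The human counterpart of *tulp1a*, TULP1, is a photoreceptor protein in which mutations cause retinal degeneration.

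FPKM summed to 501725 to 522531 in the mutant pools and to 512587 to 540974 in the wild-type pools. Read totals are unknown, but the step that 1 fragment adds to low genes gave mutant pools 1 and 2 a depth of 1.26 and 1.27 relative to mutant pool 0, and the wild-type pools a relative depth of 0.829 to 1.24. The targeted gene *tafazzin*, listed as *taz*, averaged 4.84 ± 1.15 FPKM in the mutants and 10.97 ± 2.12 FPKM in wild-type (SD, n = 3 pools each), with every mutant pool below every wild-type pool. On the main axis of variation, the mutant pools lay at -16.4 to -35.2 and the wild-type pools at 29.0, 32.0 and 10.5, so that wild-type pool 2 was the nearest to the mutants. All 10 markers of muscle, heart, liver, pancreas, neurons, skin, blood and other larval tissues passed the filter on low values. Their summed level was lower in every mutant pool, at 8427 to 9024 FPKM in mutant pools and 9823 to 11728 FPKM in wild-type pools. Of these markers 3 (*try*, *krt4* and *mylpfa*) lay below wild-type without overlap and 1 lay above, where 10.5% and 11.9% of all genes tested did. These 3 genes made up most of the sum, and 4 of the 10 markers had a positive log2 fold change. The part of the lower sum in the differences below was not tested.

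All 10 phototransduction genes passed this filter, which kept genes whose 6 pools averaged 0.5 FPKM or more. *tulp1a* did so only through its wild-type values (mutant mean 0.478 FPKM), so its call below is a description only. Between MZ *tafazzin* mutants and wild-type larvae, 2 of the 10 were past an adjusted p of 0.05 in the limma fit over all 21843 genes, *pde6h* and *tulp1a*, both lower. By the same rule 0.911% of all genes tested passed, 0.215% lower and 0.696% higher. The other 8 did not pass, and 7 of them had a positive log2 fold change, as did 50.4% of all genes tested. A library of whole larvae mixes all tissues, so fewer photoreceptors and less RNA per photoreceptor cannot be told apart.

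**Figure D1:**
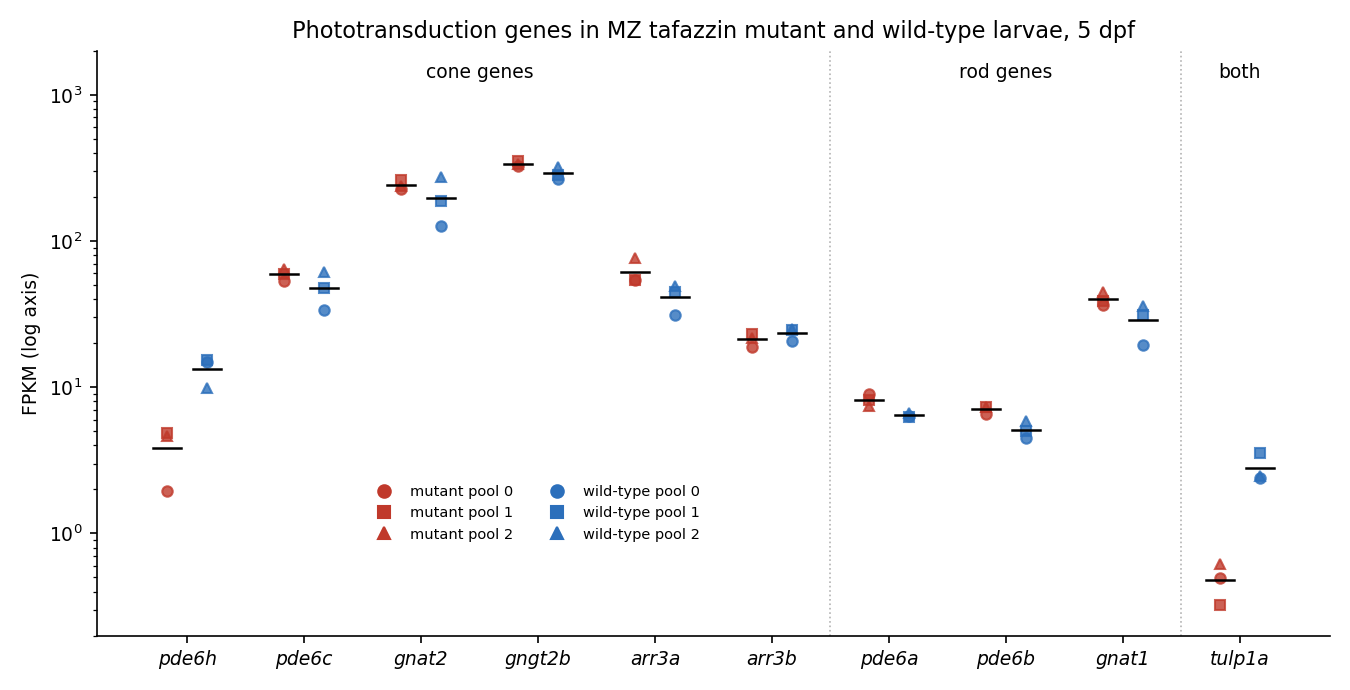
FPKM on a log axis for each of the 10 genes in the 3 mutant pools (red, left) and the 3 wild-type pools (blue, right), with a line at each mean. The mutant pools lie below the wild-type pools for *pde6h* and *tulp1a* and above them for *gngt2b*, *arr3a*, *pde6a*, *pde6b* and *gnat1*, while the genotypes overlap for *pde6c*, *gnat2* and *arr3b*.

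*pde6h* encodes an inhibitory subunit of cone PDE6 and its locus is at 356154 to 356961 on chromosome 6 (GRCz11). FPKM values were 1.96, 4.86 and 4.65 in mutant pools 0, 1 and 2, against 14.8, 15.3 and 9.90 in wild-type pools 0, 1 and 2. The genotypes did not overlap, mutant pool 0 was the lowest of all 6 pools, and wild-type pool 2 was the wild-type pool nearest to the mutants. Means were 3.82 ± 1.61 FPKM in the mutants and 13.3 ± 2.98 FPKM in wild-type (SD, n = 3 pools each), with a log2 fold change of -1.61 and a standard error (SE) of 0.27 on the log2(FPKM + 1) scale, and the mutant mean was 28.7% of wild-type. In order of log2 fold change, *pde6h* stood at place 22 from the lowest of all genes tested. Its adjusted p of 0.0388 from limma became 0.0357 without wild-type pool 2, but 0.0739, 0.077 and 0.101 without mutant pool 0, 1 and 2, and 0.167 and 0.147 without wild-type pool 0 and 1, while the log2 fold change stayed between -1.29 and -1.80.

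The catalytic subunit that *pde6h* inhibits, *pde6c* on chromosome 12, had the opposite sign. It was at 52.9, 59.6 and 64.7 FPKM in the mutant pools, against 33.7, 47.6 and 61.8 FPKM in the wild-type pools. The ranges overlapped because wild-type pool 2 reached the mutant values. Means were 59.1 ± 5.91 FPKM in mutants and 47.7 ± 14.1 FPKM in wild-type (SD, n = 3 pools each), with a log2 fold change of 0.34 (SE 0.19) that was 0.12 without wild-type pool 0 and 0.54 without wild-type pool 2. Per pool, there were 0.0371, 0.0816 and 0.0718 units of *pde6h* FPKM for each unit of *pde6c* in the mutants, against 0.439, 0.321 and 0.16 in wild-type.

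Zebrafish have a second cone inhibitory subunit gene, listed as *zgc:73359* and now named *pde6hb* in the RefSeq gene table, where *pde6h* is *pde6ha*. It was set beside *pde6h* after its values had been seen. Its locus, at 359 to 19974 on an unplaced GRCz11 sequence, is shared with 2 other genes of the table. It had 389, 393 and 546 FPKM in the mutant pools, against 208, 347 and 460 FPKM in the wild-type pools, so that it was far more abundant than *pde6h* in every pool. The genotypes overlapped, with means of 443 ± 89.7 FPKM in mutants and 338 ± 126 FPKM in wild-type (SD, n = 3 pools each), with a log2 fold change of 0.44 (SE 0.26, limma adjusted p = 0.441). It was 0.13 without wild-type pool 0, 0.28 without mutant pool 2 and 0.70 without wild-type pool 2.

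The rod inhibitory subunits were also above *pde6h*, apart from 1 of them in wild-type. *pde6g* (now *pde6gb*) was at 57.7, 56.1 and 80.9 FPKM in mutant pools, against 37.0, 53.9 and 51.4 FPKM in wild-type pools. *zgc:112320* (now *pde6ga*) was at 8.72, 12.3 and 11.6 FPKM in mutant pools, against 5.95, 9.42 and 8.71 FPKM in wild-type pools, thus above *pde6h* in every mutant pool and below it in every wild-type pool. Neither passed the test (limma adjusted p = 0.257 and 0.327). Of the FPKM summed over these 4 genes, *pde6h* made up 0.429%, 1.04% and 0.722% in the mutant pools, against 5.58%, 3.59% and 1.87% in the wild-type pools, and *zgc:73359* made up 84.3% to 85.1% in the mutant pools, against 78.2% to 86.8% in the wild-type pools. The summed level was 458, 466 and 644 FPKM in mutant pools, against 265, 426 and 530 FPKM in wild-type pools. The sources used here do not say how fragments that fit several genes were shared out, and any exchange of reads between *pde6h* and its paralogs was not tested.

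**Figure D2:**
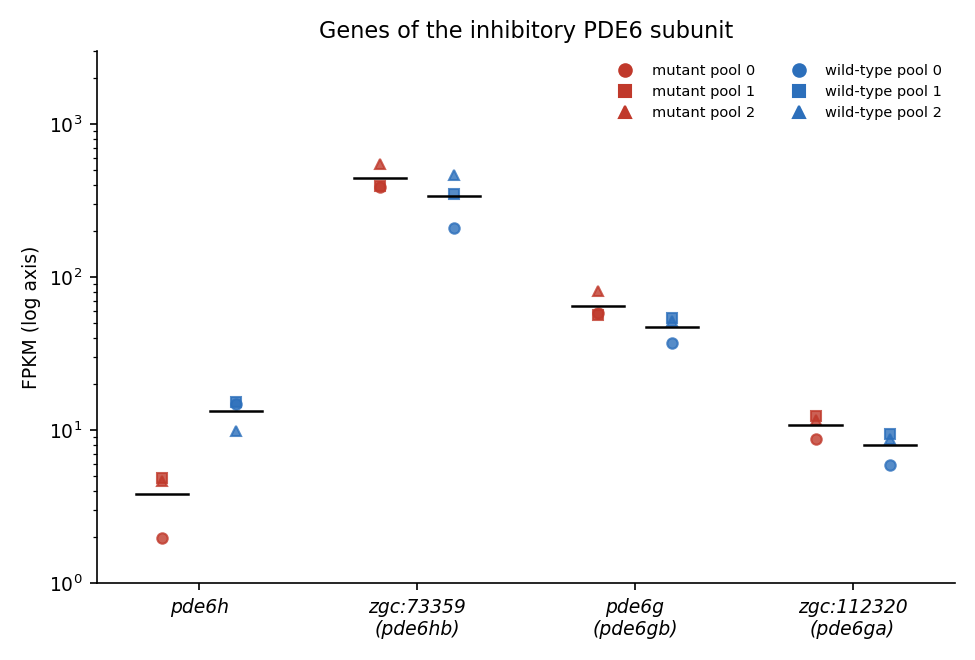
FPKM on a log axis of the 4 genes for inhibitory PDE6 subunits in the mutant pools (red, left) and wild-type pools (blue, right), with a line at each mean. *pde6h* averaged 3.82 FPKM in mutants and 13.3 FPKM in wild-type, whereas *zgc:73359* averaged 443 FPKM in mutants and 338 FPKM in wild-type and was the most abundant of the 4 in every pool.

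The tested genes next to *pde6h* on chromosome 6 did not share its size of difference. *LOC110437775*, which ends 5.17 kb before it, was at 18.1, 10.1 and 14.2 FPKM in mutant pools, against 26.0, 24.4 and 22.6 FPKM in wild-type pools, with no overlap (log2 fold change -0.77, SE 0.18, limma adjusted p = 0.0853). *LOC108190355*, 4.48 kb after it, was at 2.35 ± 1.05 FPKM in mutants and 2.56 ± 0.512 FPKM in wild-type (SD, n = 3 pools each). None of the 36 tested genes within 1 Mb of *pde6h* passed. Before adjustment, 2 were higher and 4 lower with limma p below 0.05, against 9.88% and 6.4% of all genes tested.

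Transducin subunits of cones were the most abundant genes of the group. *gngt2b*, the gamma subunit gene on chromosome 12, was at 327, 353 and 334 FPKM in the mutant pools, against 266, 285 and 318 FPKM in the wild-type pools. The mutant pools were all above the wild-type pools, by little (log2 fold change 0.23, SE 0.09). *gnat2*, the alpha subunit gene on chromosome 8, was at 228, 263 and 236 FPKM in mutant pools, against 127, 189 and 276 FPKM in wild-type pools. Its wild-type pools spread 2.18-fold, from pool 0 as the lowest of all 6 to pool 2 as the highest, and the mutant pools lay between them (log2 fold change 0.36, SE 0.23). Without wild-type pool 0 that difference shrank to 0.08, and without wild-type pool 2 it was 0.64 on the log2 scale (limma adjusted p = 0.875 and 0.0976).

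The cone arrestin genes had log2 fold changes of opposite sign, and neither passed the test (limma adjusted p = 0.198 for *arr3a* and 0.599 for *arr3b*). *arr3a* was at 54.0, 53.9 and 76.4 FPKM in the mutant pools, against 31.1, 44.5 and 49.3 FPKM in the wild-type pools. All mutant pools were above all wild-type pools, and mutant pool 2 stood above the other mutant pools (log2 fold change 0.56, SE 0.19, and 0.36 without wild-type pool 0). The locus given for *arr3a*, on chromosome 10 from 26747794 to 26811397, is shared with 2 other genes of the table, so its own position is not known from the files. *arr3b*, on chromosome 14, was at 19.0, 23.2 and 21.7 FPKM in mutant pools, against 20.8, 24.7 and 25.0 FPKM in wild-type pools, and the genotypes overlapped (log2 fold change -0.14, SE 0.11, and -0.06 to -0.22 with any 1 pool left out, lowest in size without mutant pool 0 and largest without wild-type pool 0). The *arr3a* to *arr3b* ratio of FPKM was 2.85, 2.32 and 3.52 in mutant pools and 1.49, 1.80 and 1.97 in wild-type pools, without overlap.

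For the 3 rod genes every mutant pool was above every wild-type pool, and none passed the test (5 of the 10 genes were above without overlap, where 11.9% of all genes tested were, and 2 of the 10 were below, where 10.5% were). *gnat1*, the rod transducin alpha gene on chromosome 6, was at 36.5, 39.1 and 44.9 FPKM in the mutant pools, against 19.6, 31.3 and 35.7 FPKM in the wild-type pools. Wild-type pool 2 came within 1 FPKM of mutant pool 0 (log2 fold change 0.50, SE 0.20, which was 0.25 without wild-type pool 0 and 0.67 without wild-type pool 2). *pde6a*, a catalytic subunit gene of rod PDE6 on chromosome 14, was at 8.92, 8.17 and 7.43 FPKM in mutant pools, against 6.37, 6.28 and 6.64 FPKM in wild-type pools. This was the tightest wild-type group of all 10 genes, with a coefficient of variation of 2.91% (log2 fold change 0.30, SE 0.12). *pde6b*, the gene of its partner subunit on chromosome 21, was at 6.59, 7.37 and 7.37 FPKM in mutant pools, against 4.48, 4.99 and 5.85 FPKM in wild-type pools (log2 fold change 0.41, SE 0.14). The median log2 fold change was 0.41 over the 3 rod genes, 0.28 over the 6 cone genes and 0.002 over all genes tested. The *gnat1* to *gnat2* ratio overlapped between genotypes, at 0.149 to 0.19 in mutant pools and 0.129 to 0.166 in wild-type pools.

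*tulp1a* was the lowest of the 10 genes in level. It reached 0.492, 0.322 and 0.620 FPKM in the mutant pools, against 2.405, 3.54 and 2.47 FPKM in the wild-type pools. The genotypes did not overlap, and the mutant mean of 0.478 ± 0.15 FPKM was 17.04% of the wild-type mean of 2.81 ± 0.637 FPKM (SD, n = 3 pools each). *tulp1a* cleared the filter on low values only through wild-type, so the adjusted p-values given next are a description and no evidence of a difference. The fit gave a log2 fold change of -1.36 (SE 0.21, limma adjusted p = 0.0287) on the log2(FPKM + 1) scale, which understates the fold change, and -2.34 with a pseudocount of 0.1. The adjusted p was 0.0361 without wild-type pool 2 and 0.0862, 0.0957 and 0.0865 without mutant pool 0, 1 and 2, and 0.0945 and 0.105 without wild-type pool 0 and 1, while the log2 fold change stayed between -1.22 and -1.43. Its paralog *tulp1b* on chromosome 6 was at 1.15 ± 0.371 FPKM in mutants and 1.06 ± 0.217 FPKM in wild-type (SD, n = 3 pools each), with a log2 fold change of 0.06 (SE 0.22). There were 0.205 to 0.609 units of *tulp1a* FPKM for each unit of *tulp1b* in the mutant pools, against 2.01 to 4.39 in the wild-type pools.

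The *tulp1a* locus, 5461642 to 5495717 on chromosome 23 (GRCz11), starts 536 kb after the end of the *tafazzin* locus (4915965 to 4925666). No other gene of the 10 is on that chromosome. Of 47 other genes tested within 1 Mb of *tafazzin*, 2 passed the test, *tulp1a* and *LOC103909653*, both lower. *LOC103909653* is listed at 0 in all 3 mutant pools and averaged 3.57 FPKM in wild-type, so that it and *tulp1a* cleared the filter on low values only through wild-type. Such genes had to differ, and nothing is read from their number near *tafazzin*. Mutant and wild-type pools did not overlap for 34.0% of these 47 genes, against 22.3% of all genes tested. That share includes *tulp1a* and *LOC103909653*. Within 1 Mb of the members other than *tulp1a*, the share ran from 14.9% (around *gngt2b*) to 29.8% (around *arr3b*). Nothing is read from the share near *tafazzin* either. The genes tested next to *tulp1a* were *tead3a*, 3.35 kb after it, at 8.95 ± 0.21 FPKM in mutants and 9.41 ± 0.736 FPKM in wild-type, and *LOC101885606*, 51.0 kb before it, at 0.963 ± 0.558 FPKM in mutants and 1.24 ± 0.349 FPKM in wild-type (SD, n = 3 pools each), and neither passed. The mutant larvae carry the chromosome on which the deletion arose and the wild-type larvae do not. Effects of other sequence differences linked to *tafazzin* and of the deletion itself therefore cannot be told apart at *tulp1a*. The window was examined after the position of *tulp1a* was seen.

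**Figure D3:**
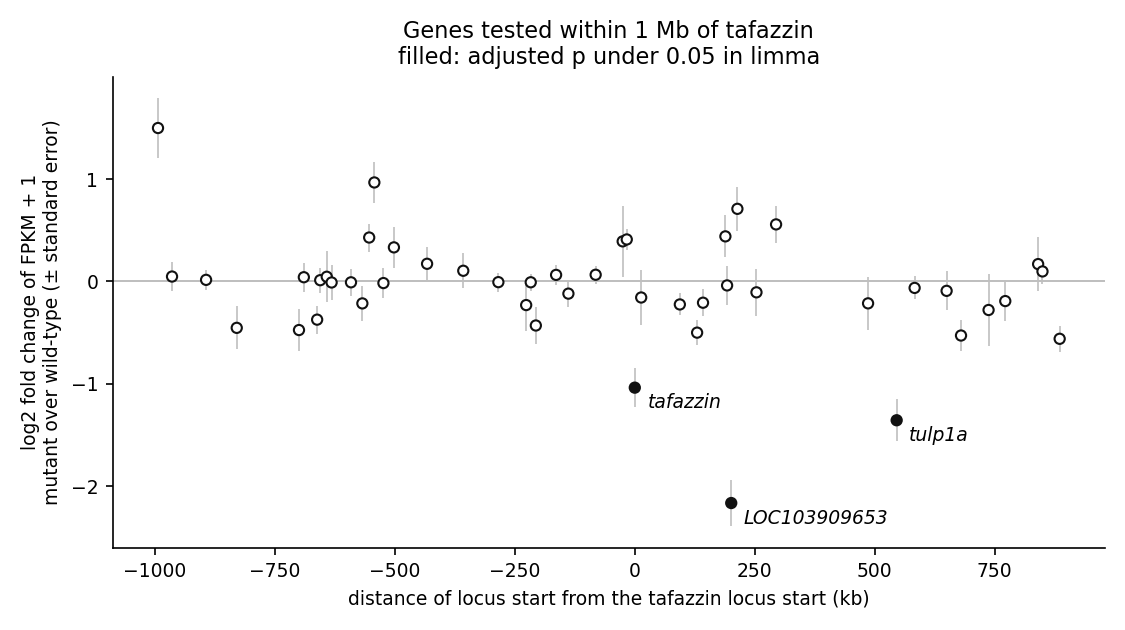
Log2 fold change on the FPKM + 1 scale, mutant over wild-type, with its standard error, for genes tested within 1 Mb of *tafazzin*, against the distance of each locus start from that of *tafazzin* in kb. The 3 filled points, *tafazzin*, *LOC103909653* and *tulp1a*, are past an adjusted p of 0.05 in limma, and all are lower in the mutants. *LOC103909653* and *tulp1a* cleared the filter on low values only through wild-type, so their calls are a description only.

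The order of the 10 genes by level was nearly kept between genotypes. In the mutants it ran *gngt2b*, *gnat2*, *arr3a*, *pde6c*, *gnat1*, *arr3b*, *pde6a*, *pde6b*, *pde6h* and *tulp1a*, from a mean of 338 to one of 0.478 FPKM, and of neighbours in this order only *arr3a* and *pde6c* had overlapping ranges. In wild-type it ran *gngt2b*, *gnat2*, *pde6c*, *arr3a*, *gnat1*, *arr3b*, *pde6h*, *pde6a*, *pde6b* and *tulp1a*, from 290 to 2.81 FPKM, with overlap between *gngt2b* and *gnat2*, between *pde6c* and *arr3a*, between *arr3a* and *gnat1* and between *gnat1* and *arr3b*. *pde6h* thus held place 9 in mutants and place 7 in wild-type, below both rod catalytic subunits in the mutants and above them in wild-type.

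The wild-type pools had a pattern of their own. Wild-type pool 0 was the lowest wild-type pool for 8 of the 10 genes and wild-type pool 2 was the highest for 8. *pde6h* went the other way, with its lowest wild-type value in pool 2. Among mutants, pool 0 was the lowest for 7 of the 10 and pool 2 the highest for 5. *gnat2*, *pde6c* and *gnat1* varied little between mutant pools, with coefficients of variation of 7.48%, 9.997% and 10.7%, and most between wild-type pools, with 38.0%, 29.5% and 28.9%. For *pde6h* it was 42.2% between mutant pools and 22.4% between wild-type pools.

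**Figure D4:**
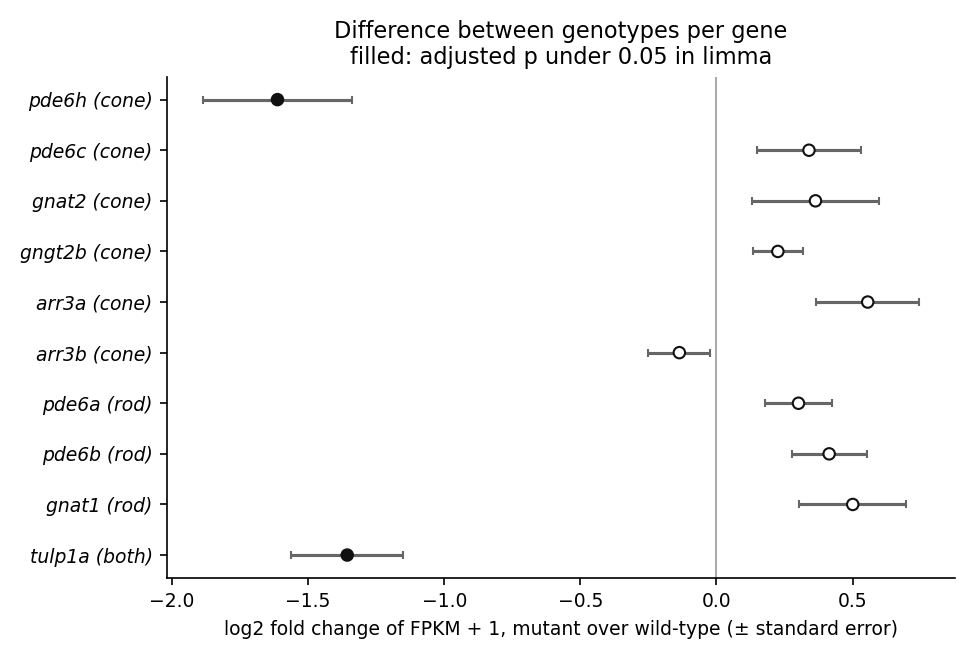
Log2 fold change on the FPKM + 1 scale, mutant over wild-type, with its standard error for each of the 10 genes. *pde6h* (-1.61) and *tulp1a* (-1.36) are past an adjusted p of 0.05 in limma, and the other 8 lie between -0.14 and 0.56. *tulp1a* cleared the filter on low values only through wild-type, so its call is a description only.

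Profiles over the 6 pools were compared by the root mean square difference of log2(FPKM + 1) values, each gene centred on its own mean. Within the group, *gngt2b* and *pde6b* were closest (0.101), followed by *pde6c* and *gnat1* (0.103), and *pde6h* and *arr3a* were farthest apart (1.17). Among 13261 other genes that averaged 5 FPKM or more, the nearest to *pde6h* were *scpp9* (0.333), *LOC101885164* (0.341), *ugt1a4* (0.364), *ca4b* (0.381) and *endou* (0.436). Those nearest to *gnat2* were *si:ch73-36p18.2* (0.0419), *zgc:109949* (0.0727), *klf9* (0.0904), *mipa* (0.0909) and *atl2* (0.0956). For *gnat1* they were *si:dkey-273o13.3* (0.0558), *si:ch211-195b13.1* (0.0734), *si:dkey-22f5.9* (0.0751), *dhrs13a.2* (0.0759) and *klhl38b* (0.076). Among these genes none came as near to *pde6h* as the fifth gene came to *gnat2* or *gnat1*. The distance is not scaled, so a gene selected for a large difference can be expected to have fewer near neighbours. Nothing is read from this contrast.

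Other cone genes of the cascade included channel, kinase and recoverin genes. Of 17 tested, none passed by limma (1 higher and 3 lower with p below 0.05 before adjustment, where 9.88% of all genes were higher and 6.4% lower, 16.3% in all), 8 had a positive log2 fold change and the median was -0.11. Their summed level was 523 to 578 FPKM in mutant pools and 446 to 636 FPKM in wild-type pools, which overlapped. The smallest p belonged to *rcvrn2*, of the recoverin family of calcium sensors, at 80.7, 91.5 and 81.9 FPKM in mutant pools, against 100.4, 104.5 and 102.8 FPKM in wild-type pools (log2 fold change -0.28, SE 0.08, limma adjusted p = 0.145). Next came *gngt2a*, paralog of *gngt2b*, at 12.7, 12.9 and 10.4 FPKM in mutant pools, against 14.8, 15.8 and 17.01 FPKM in wild-type pools (log2 fold change -0.38, SE 0.12, limma adjusted p = 0.164). Both lay lower in all mutant pools, and *gngt2a* thus had the opposite sign to *gngt2b*. The *gngt2a* to *gngt2b* ratio was 0.0388, 0.0366 and 0.0310 in mutant pools and 0.0557, 0.0554 and 0.0534 in wild-type pools.

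**Figure D5:**
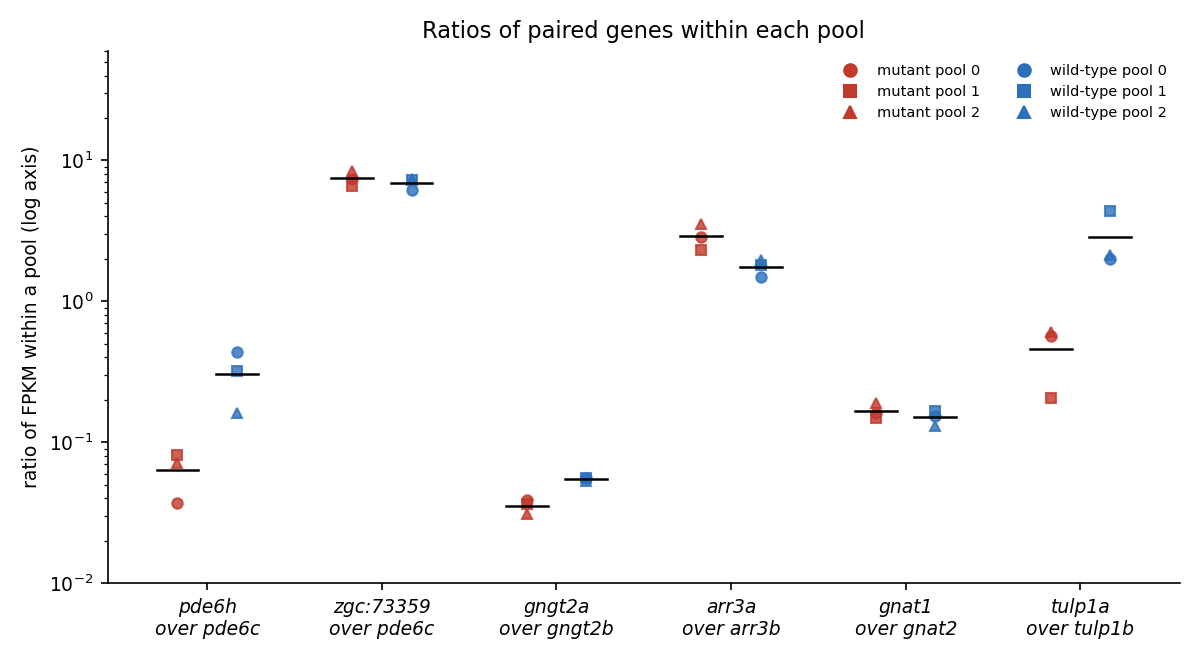
Ratio of FPKM within each pool, on a log axis, for 6 pairs of genes in the mutant pools (red, left) and wild-type pools (blue, right), with a line at each mean. The genotypes are apart for *pde6h* over *pde6c*, *gngt2a* over *gngt2b*, *arr3a* over *arr3b* and *tulp1a* over *tulp1b*, and overlap for *zgc:73359* over *pde6c* and *gnat1* over *gnat2*.

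Other rod genes of the cascade were mostly above wild-type in mean. Of 14 tested, 13 had a positive log2 fold change, against 50.4% of all genes tested, and the median was 0.21. None of the 14 passed by limma. Before adjustment, 3 were higher and 1 lower with limma p below 0.05, where 9.88% and 6.4% of all genes tested were. Their summed level did not overlap, at 427 to 464 FPKM in mutant pools and 350 to 424 FPKM in wild-type pools. That sum includes the G protein beta subunit genes *gnb1a* and *gnb1b*, and how much of it comes from rods is not known in whole larvae. The rhodopsin kinase gene *grk1a* was at 7.44 ± 2.14 FPKM in mutants and 4.45 ± 1.23 FPKM in wild-type (SD, n = 3 pools each), with a log2 fold change of 0.62 (limma adjusted p = 0.22). *pde6g*, given above, was the other rod gene with the smallest p. Of 20 genes that serve both cell types or act beside the cascade, none passed by limma (1 higher and 1 lower with p below 0.05 before adjustment) and the median was 0.07. Among them the phosducin gene *pdcb*, whose product binds transducin beta-gamma, was at 38.4 ± 2.02 FPKM in mutants and 28.9 ± 5.46 FPKM in wild-type (SD, n = 3 pools each), and *arl3l1*, of the ARL3 family of small GTPases, was at 9.62 ± 0.648 FPKM in mutants and 13.0 ± 2.89 FPKM in wild-type.

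Opsins, the light receptors at the head of the cascade, gave a positive log2 fold change for 7 of the 8 genes tested, against 50.4% of all genes tested. None of the 8 passed by limma (median log2 fold change 0.29). Before adjustment, 1 was higher and none lower with limma p below 0.05, where 9.88% and 6.4% of all genes tested were. Rhodopsin, *rho*, was at 1330, 1316 and 1658 FPKM in mutant pools, against 603, 882 and 1367 FPKM in wild-type pools (log2 fold change 0.66, SE 0.26, limma adjusted p = 0.247). The red cone opsin *opn1lw2* was at 502, 512 and 514 FPKM in mutant pools, against 332, 387 and 516 FPKM in wild-type pools (log2 fold change 0.33, SE 0.15, limma adjusted p = 0.311). In both, wild-type pool 2 reached the mutant range, and without it both passed (log2 fold change 0.97 for *rho* and 0.51 for *opn1lw2*, limma adjusted p = 0.0478 and 0.0462). That fit passed 422 genes, against 199 in the main fit, and no opsin passed with any other pool left out. Nothing is read from the pass of these opsins in that fit. The red and green opsins have near-identical copies between which reads may be split.

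None of 37 tested genes for photoreceptor structure and transcription factors passed by limma, with a median log2 fold change of 0.07. With limma p below 0.05 before adjustment, 4 were higher and 1 lower, against 9.88% and 6.4% of all genes tested. *thrb*, whose product directs red cone fate, was at 21.0, 20.6 and 20.6 FPKM in mutant pools, against 28.3, 26.7 and 26.9 FPKM in wild-type pools (log2 fold change -0.38, SE 0.08, limma adjusted p = 0.0757). *elovl4b*, for elongation of very long fatty acids, was at 17.5 ± 1.78 FPKM in mutants and 12.4 ± 1.81 FPKM in wild-type (SD, n = 3 pools each). The summed level of these genes was 661 to 717 FPKM in mutant pools and 577 to 745 FPKM in wild-type pools, and that of the opsins was 4313 to 4911 FPKM in mutant pools and 2796 to 4757 FPKM in wild-type pools. Both of these sums overlapped between genotypes, unlike those of the other rod genes and the tissue markers, and their part in the lower *pde6h* and *tulp1a* was not tested.

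The pineal organ of fish is also photoreceptive and shares genes with the retina. None of 13 pineal entries tested passed by limma, with a median log2 fold change of -0.10. The gene *exorh* is listed under separate entries, which both enter this count and the summed level. With limma p below 0.05 before adjustment, none was higher and 3 were lower, against 9.88% and 6.4% of all genes tested. The melatonin synthesis genes *asmt2* and *aanat2* had the smallest p. *asmt2* was at 2.39, 2.06 and 1.52 FPKM in mutant pools, against 3.60, 3.29 and 3.95 FPKM in wild-type pools (log2 fold change -0.63, SE 0.18, limma adjusted p = 0.131). *aanat2* was at 1.47, 1.84 and 2.64 FPKM in mutant pools, against 2.87, 3.95 and 4.09 FPKM in wild-type pools (log2 fold change -0.65, SE 0.20, limma adjusted p = 0.17). The summed pineal level overlapped, at 42.8 to 48.2 FPKM in mutant pools and 39.1 to 53.0 FPKM in wild-type pools, and whether it bears on the 10 genes was not tested.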

How the data were processed

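RNA from 3 pools of 25 MZ *tafazzin* mutant larvae and 3 pools of 25 wild-type larvae was sequenced. Processing by the authors, as their methods and the submitters' processing notes give it, used Trim Galore 0.4.2 for trimming, STAR 2.5.3 for alignment to GRCz11, and then Cufflinks 2.2.1 and Cuffdiff. The authors deposited FPKM per gene and pool. How libraries were scaled and multiply mapped fragments handled is unknown here. The deposited fold change, p-value and q-value columns of the authors' own comparison and a second table of genes selected by it were not used. Column names give the genotype but not the labelled sample, so the 3 columns of a genotype are unlabelled replicates. The methods call each pool an independent biological sample. The p-values set the genotype difference against the spread between these pools, adjusted with that of other genes. They do not cover differences between crosses.

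The 21843 genes whose 6 pools averaged 0.5 FPKM or more were fitted as log2(FPKM + 1) with limma 3.58.1 in R 4.3.3, a moderated two-sided test with a mean-variance trend, p-values being adjusted after Benjamini and Hochberg over all of them and called under 0.05. The fit was tried on simulated data with independent noise per gene, in which only genes above about 5 FPKM were changed. That does not cover low genes such as *tulp1a* or an effect of the cross. Fold changes are mutant over wild-type and understate those of low genes. Absolute depth is unknown, which limits low genes such as *tulp1a* most. The smallest exact permutation p that 3 pools against 3 allow is 0.1 (two-sided), so no single gene was tested in that way.

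The members and lists were chosen with earlier results of these data known. The text names all members, *tafazzin*, for each list up to 4 genes past the threshold (by largest change), or its 2 genes of smallest p where under 2 passed, and the 5 genes nearest in profile to *pde6h*, *gnat2* and *gnat1*. *zgc:73359*, *zgc:112320*, *tulp1b* and neighbours on the chromosome were named after their values were seen. Of 267 symbols on 11 lists, 232 matched the table exactly and 12 through synonyms in a RefSeq gene table (GRCz12tu), 5 were members or repeats, and 18 had no match. As alternatives, each pool was left out, the column number was a block, the trend was dropped, values were quantile normalized or scaled to the median, the filter was 5 FPKM or absent, or the pseudocount was 0.1. Planned comparisons of promoter motifs and protein sequences were not run here. Tables and figures were made with Python 3.11.15, pandas 2.3.3 and matplotlib 3.10.9.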

Additional observations from a re-analysis of the deposited data

How the results depend on the processing

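With no filter 87 genes passed, without the trend 38, and with each pool left out in turn 15 to 422, against 199, the highest number without wild-type pool 2. Of the 10 members 2 passed in the main fit. Only *tulp1a* passed with a pseudocount of 0.1, with no filter or without the trend, and its call is a description only, as above. Only *pde6h* passed with a filter of 5 FPKM, under which *tulp1a* was not tested. *pde6h* cleared that filter only through wild-type (mutant mean 3.82 FPKM), so nothing is read from that pass. With a pool left out 0 to 2 passed, 2 only without wild-type pool 2. The *pde6h* call was lost with a pseudocount of 0.1 (limma adjusted p = 0.0502), no filter (0.068) or no trend (0.0933), at log2 fold changes of -1.85, -1.61 and -1.61. No member changed direction under any alternative. The *tafazzin* call (limma adjusted p = 0.0468) was lost with a pseudocount of 0.1, no filter, quantile or median scaling, no trend or any pool other than wild-type pool 2 left out (0.051 to 0.184), while its log2 fold change, -1.04, stayed between -0.91 and -1.19 under all alternatives. Among the further lists, 1 lens gene (*crygn1*), 1 gene of other retinal neurons and Müller glia (*glula*) and 1 tissue marker (*try*) passed with a filter of 5 FPKM, and 1 visual cycle gene (*rbp4*) with quantile normalization. With a pool left out, 0 to 2 opsin genes and 0 to 2 clock genes passed, and 0 to 1 in structure and transcription factors, in genes of both cell types and in tissue markers, above 0 only without wild-type pool 2.

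By the labels, pools share only a column number across genotypes. Correlations of their deviations from the group mean were 0.02, 0.004 and 0.05 for pools 0, 1 and 2, and not every pool correlated best with its own number. With the replicate block 353 genes passed, *glula* among the further lists, and the same 2 members (limma adjusted p = 0.0482 for *pde6h*). Of the 5 genes nearest to *pde6h*, *gnat2* and *gnat1* in profile, 1, 3 and 4 remained when genes down to 1 FPKM were admitted, and 0, 2 and 1 when each genotype was centred on its own mean, an alternative chosen after seeing the data.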

Other observations

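Other tissues of the eye and the clock genes were measured in the same libraries. Beside the counts below, 9.88% of all genes tested were higher and 6.4% lower with limma p below 0.05 before adjustment. Of 21 genes of the visual cycle and retinal pigment epithelium none passed by limma (1 higher and 4 lower with p below 0.05 before adjustment, median log2 fold change -0.05), and their summed level did not overlap, at 906 to 1041 FPKM in mutant pools and 681 to 842 FPKM in wild-type pools. Most of that sum was *rbp4* alone, and 13 of the 21 genes had a negative log2 fold change. *rbp4*, the retinol carrier of plasma, which the liver also makes, was at 761, 736 and 902 FPKM in mutant pools, against 517, 667 and 640 FPKM in wild-type pools, and *stra6*, the receptor that takes up retinol from it, was at 6.29, 9.94 and 6.93 FPKM in mutant pools, against 11.2, 11.7 and 10.7 FPKM in wild-type pools. Neither passed (limma adjusted p = 0.173 for both). Of 26 genes of other retinal neurons and Müller glia none passed by limma (2 higher and 1 lower with p below 0.05 before adjustment, median -0.07). The glutamine synthetase gene *glula* was at 255, 279 and 409 FPKM in mutant pools, against 178, 174 and 189 FPKM in wild-type pools (limma adjusted p = 0.0655), and the glutamate transporter gene *slc1a3a* was at 14.4 ± 0.231 FPKM in mutants and 18.4 ± 2.12 FPKM in wild-type (SD, n = 3 pools each). Both are also expressed outside the eye.

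Lens genes gave none of 30 past the threshold by limma (1 higher and 3 lower with p below 0.05 before adjustment, median 0.12). The crystallin gene *crygn1* was at 7.67 ± 0.593 FPKM in mutants and 12.9 ± 2.11 FPKM in wild-type (SD, n = 3 pools each), and *lim2.5*, of the lens membrane protein family, at 13.1 ± 3.48 FPKM in mutants and 20.2 ± 2.56 FPKM in wild-type. Of 37 circadian clock genes none passed by limma (3 higher and 2 lower with p below 0.05 before adjustment, median 0.03). *hlfb*, of the PAR bZIP factors, was at 18.5, 19.3 and 20.9 FPKM in mutant pools, against 10.3, 12.01 and 17.4 FPKM in wild-type pools, and the light-induced *per2* was at 19.8, 21.7 and 23.6 FPKM in mutant pools, against 12.9, 12.9 and 19.6 FPKM in wild-type pools. In both, wild-type pool 2 was the wild-type pool nearest to the mutants. Of the 10 tissue markers none passed by limma (1 higher and 2 lower with p below 0.05 before adjustment, median -0.04), with *try*, a trypsin gene of the pancreas, at 1924 ± 59.7 FPKM in mutants and 2848 ± 162 FPKM in wild-type, and *krt4*, a skin keratin gene, at 2075 ± 239 FPKM in mutants and 2924 ± 448 FPKM in wild-type (SD, n = 3 pools each).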
